A study of Mus musculus with 8 samples.

Results

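The 9 enzyme and transporter genes described here carry sulfur from methionine to cysteine, taurine and sulfate in the liver, and they were measured in 8 mouse liver RNA libraries. They are Mat1a and Ahcy of the methionine cycle, Cbs and Cth of transsulfuration, Cdo1 and Csad of taurine synthesis, the taurine transporter gene Slc6a6, and Ethe1 and Suox of sulfide and sulfite oxidation. The 9 genes were selected by name for their place in this pathway, out of 20894 genes in the table, and all 9 are in it. They were chosen on these same libraries, with differences between the groups already known. Their differences between the groups are therefore given as a description, and the test of the whole table beside them supports nothing about the choice.

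The control libraries came from wild-type mice given the vector AAV8-TBG-GFP, an adeno-associated virus that delivers green fluorescent protein (GFP). The other libraries came from wild-type mice given AAV8-TBG-POLR2G, which delivers POLR2G, a subunit of RNA polymerase II. All mice were fasted in the daytime before the liver was taken, and each group has 4 libraries. The TBG promoter, from the thyroxine-binding globulin gene, is active mainly in hepatocytes, while the libraries hold RNA of the whole tissue. The sources used here give no strain, sex, age, vector dose or length of the fast. In such bulk tissue, fewer cells of a type and less RNA per cell cannot be told apart.

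In the methionine cycle, methionine is activated to S-adenosylmethionine, the cell's main methyl donor, and comes back through homocysteine. Homocysteine that leaves the cycle is turned into cysteine by transsulfuration. Cysteine is either used for protein and glutathione or oxidized to taurine and sulfate, and in mouse liver taurine is the main partner with which bile acids are conjugated.

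Total counts ran from 14159056 to 22165491 in a library. Each library matched its label on Polr2g, with 213 to 258 counts under AAV8-TBG-GFP and 38649 to 54553 under AAV8-TBG-POLR2G. Hepatocyte markers summed to at least 115000 in every library as counts-per-million values (CPM). Markers of lymphocytes summed to at most 2.71 CPM and those of bile duct cells to at most 11.7 CPM. Sums of periportal hepatocyte markers did not overlap, at 1806 to 1894 CPM in GFP control and 2001 to 2140 CPM in POLR2G libraries, and those of pericentral markers did. Such sums follow their most abundant genes. Of the 5 periportal markers, 3 had a higher and 2 a lower mean in the POLR2G libraries. Of the 5 pericentral markers, 4 had a higher and 1 a lower mean, and no marker of either list passed the threshold of the edgeR test. Kupffer cell markers overlapped between the groups, at 174 to 275 CPM in GFP control and 191 to 380 CPM in POLR2G libraries. All 6 of them had a higher mean in the POLR2G libraries. Of the 9 hepatocyte markers, 2 had a higher and 7 a lower mean, and no marker of either list passed the threshold. GFP control replicate 3 stood apart from the other control libraries on several marker lists, some sex-biased liver genes among them. Female-biased genes summed to 61.4 CPM in it, against 15.4 to 22.4 CPM in the other 3 GFP control and 6.44 to 11.6 CPM in the POLR2G libraries, which all lay below all controls. Of 9 female-biased genes listed, 2 had enough counts to be tested, and 1 was at 0 in every library. The major urinary protein (Mup) genes, male-biased in mouse liver, took 6.89% of its counts, against 9.59 to 16.1% in the other 3 and 12.5 to 18.0% in the POLR2G libraries. The listed male-biased genes summed to 26980 CPM in it, the lowest of the 8 libraries and near the 28170 to 32630 CPM of the other 3. The POLR2G libraries had 31310 to 41430 CPM, a range that overlapped the controls. Of the 9 male-biased genes listed, 6 had a higher and 3 a lower mean in the POLR2G libraries, and none passed the threshold. Stellate cell and fibroblast markers summed to 85.1 CPM in it, against 44.4 to 57.9 CPM in the other 3. The muscle and adipose list rested on 1 tested gene, Car3, at 776 CPM in it against 1990 to 2307 CPM in the other 3. The POLR2G libraries had 2289 to 2553 CPM. The other markers of that list had at most 2 counts in any library, so the sum measures Car3 and neither tissue. The part of these marker differences in the results was not tested. Log2 fold changes of the 9 genes, where tested, are given with and without GFP control replicate 3. One POLR2G library has a column number that no label lists and is called the unnumbered library.

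Csad, the gene of the 9 with the largest fold difference between the group means, has 12 coding transcripts in the GENCODE M21 annotation, and its single value in the table does not separate them. Its promoter windows are shown here as background. RefSeq lists 2 windows for Csad, each from 250 bases before a start to 50 bases after it, of 300 bases and on the minus strand of chromosome 15 in GRCm38.p6. The upstream one is chr15:102205003-102205302 and holds no start of a GENCODE Csad transcript. The downstream one is chr15:102188994-102189293 and holds 1 start, of a coding transcript. The starts of the other coding transcripts lie outside both windows. Capitals mark matches, on either strand, to the CCAAT box or to the GC box, whose letters are GGGCGG.
Csad upstream start: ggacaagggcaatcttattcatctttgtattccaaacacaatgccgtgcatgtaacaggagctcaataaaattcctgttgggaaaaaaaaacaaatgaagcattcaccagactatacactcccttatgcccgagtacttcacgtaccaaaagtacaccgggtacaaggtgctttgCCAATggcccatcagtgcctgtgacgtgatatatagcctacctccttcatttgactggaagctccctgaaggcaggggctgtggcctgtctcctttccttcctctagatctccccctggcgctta
Csad downstream start: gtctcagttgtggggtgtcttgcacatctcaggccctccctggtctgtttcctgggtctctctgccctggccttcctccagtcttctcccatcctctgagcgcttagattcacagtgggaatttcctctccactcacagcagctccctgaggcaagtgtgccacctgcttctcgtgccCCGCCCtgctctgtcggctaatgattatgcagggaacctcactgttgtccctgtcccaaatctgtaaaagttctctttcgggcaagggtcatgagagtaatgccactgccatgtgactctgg

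The upstream window held 1 CCAAT and the downstream window 1 GC box, read on the opposite strand, and no motifs overlapped. Of 32851 RefSeq windows of the same length, 37.4% held the first motif and 35.7% the second. The other 4 motifs searched on both strands had no match in either Csad window. They were the nuclear receptor half-site AGGTCA, held by 16.3% of all windows, and the E-box of clock and related factors, with the letters CACGTG, held by 7.15%. The TATA box, searched with the letters TATAAA, was in 13.6% of all windows, and the core of the antioxidant response element, searched as TGACNNNGC, in 12.4%. Windows were found for 5 of the 9 genes (Csad, Cbs, Ahcy, Suox and Ethe1).

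None of the 9 genes changed past the threshold of the whole-table test (edgeR adjusted p under 0.05), where 0.0385% of 10390 tested genes did. Of the 9, 8 were tested, with adjusted p from 0.309 to 0.998, and Ahcy was left out for low counts. The median log2 fold change, POLR2G against GFP control, was −0.0938 over the 8 and −0.00313 over all tested genes, with 4 means higher and 4 lower. At an unadjusted p under 0.05 stood 3 of the 8 (Csad and Slc6a6 lower, Ethe1 higher), against 8.30% of all tested genes in either direction. The groups did not overlap for 1 of the 8, Slc6a6, against 5.51% of all tested genes. The plot of the 9 genes by library shows how much of each difference lies within the spread of a group. All CPM values below are scaled with TMM factors, group values are mean ± SD (n = 4), and SE is the standard error of a log2 fold change.

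**Figure D1:**
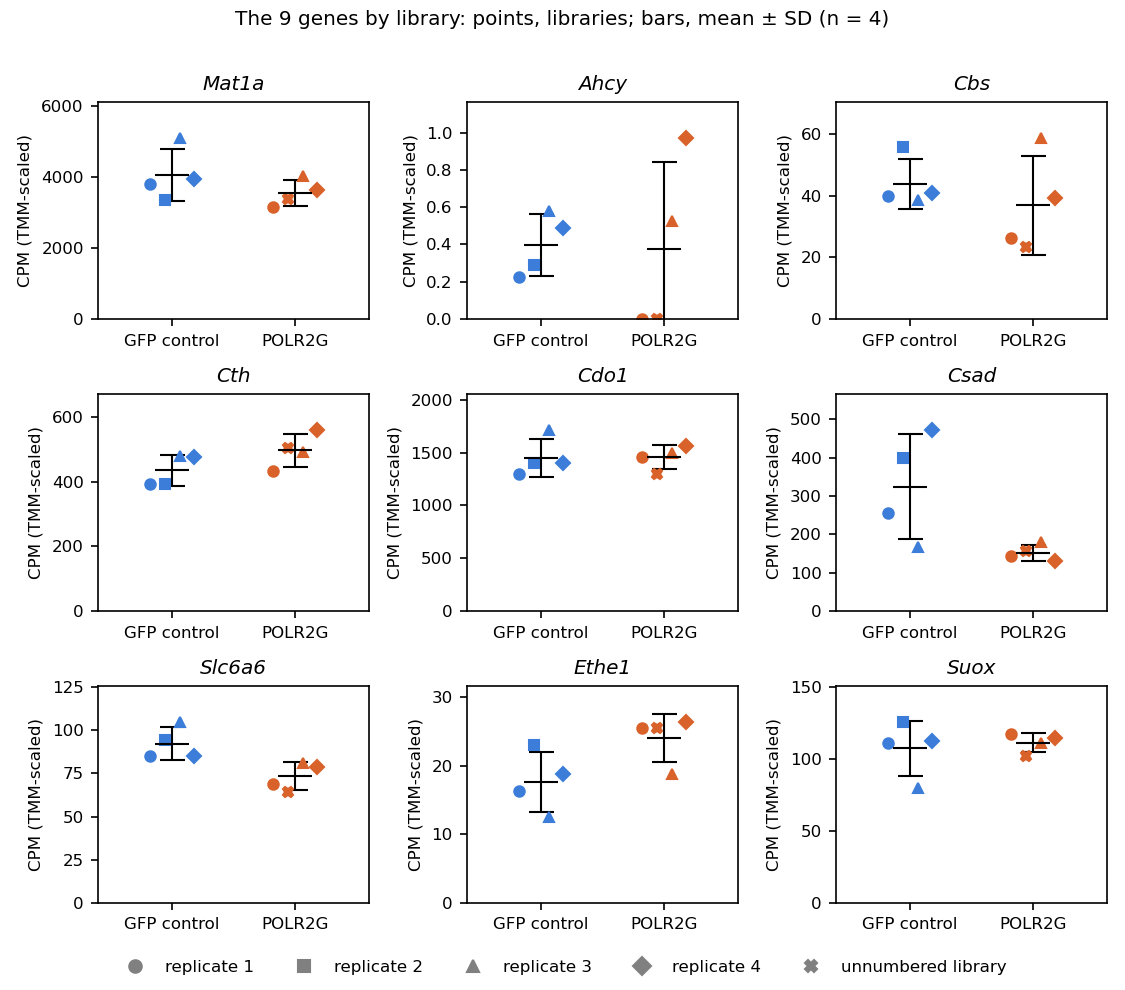
CPM of each of the 9 genes (vertical axis, starting at 0) in the 4 GFP control and 4 POLR2G libraries; points are libraries, black bars the mean ± SD. The GFP control libraries spread from 168 to 472 CPM for Csad while the POLR2G libraries lie between 130 and 179 CPM, and Slc6a6 is the 1 tested gene here whose groups do not overlap.

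Mat1a (ENSMUSG00000037798; GRCm38 chromosome 14, 41105035 to 41124412, plus strand) encodes the liver's methionine adenosyltransferase, which makes S-adenosylmethionine. In the GFP control libraries it measured 3814, 3351, 5091 and 3958 CPM in replicates 1 to 4. The POLR2G libraries had 3172 CPM in replicate 1, 3393 in the unnumbered library, 4021 in replicate 3 and 3629 in replicate 4. The groups overlapped, and GFP control replicate 3 was the highest of all 8 libraries. The means were 4054 ± 739 and 3553 ± 363 CPM (log2 fold change −0.19, SE 0.131, edgeR adjusted p = 0.766). Without GFP control replicate 3 the log2 fold change was −0.063.

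Ahcy (ENSMUSG00000027597; chromosome 2, 155059310 to 155074497, minus strand) encodes the enzyme that splits S-adenosylhomocysteine into homocysteine and adenosine. The table gave it 4, 5, 9 and 9 counts in GFP control replicates 1 to 4. POLR2G replicates 1, 3 and 4 had 0, 9 and 17 counts and the unnumbered library 0. These counts are too few for a fold or a test. They are also far below what is usual for this gene, which liver expresses strongly. A near-identical copy, Gm4737, shares 75.7% of the 31-base words of the coding Ahcy transcripts, but it is listed at 0 in every library. A value in the table may not cover all transcripts of a gene, which was not tested. Annotated coding transcripts number 1 for Cth, Ethe1 and Suox, 2 for Ahcy, 3 for Mat1a and Cdo1, 4 for Slc6a6, 9 for Cbs and 12 for Csad.

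Cbs (ENSMUSG00000024039; chromosome 17, 31608894 to 31637238, minus strand) encodes cystathionine beta-synthase, which joins homocysteine to serine. GFP control replicates 1 to 4 had 39.97, 55.9, 38.6 and 40.8 CPM. In POLR2G replicates 1, 3 and 4 it had 26.3, 58.5 and 39.3 CPM, and in the unnumbered library 23.2 CPM. The POLR2G libraries held both the lowest and the highest value, and their SD on the log2 scale (0.602) was larger than that of 87.2% of tested genes in that group. In the GFP control group the SD was 0.246, near the middle at 51.3%. The means were 43.8 ± 8.09 and 36.8 ± 16.03 CPM (log2 fold change −0.25, SE 0.270, edgeR adjusted p = 0.869). Without POLR2G replicate 3 it was −0.57, without the unnumbered library −0.085, and without GFP control replicate 3 −0.31.

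Cth (ENSMUSG00000028179; chromosome 3, 157894248 to 157925077, minus strand) encodes cystathionine gamma-lyase, which releases cysteine. GFP control replicates 1 to 4 had 394, 392, 478 and 477 CPM. Under POLR2G, replicates 1, 3 and 4 had 433, 492 and 559 CPM and the unnumbered library 504 CPM. Only POLR2G replicate 1 fell within the range of the control libraries. The means were 435 ± 48.7 and 497 ± 51.5 CPM (log2 fold change 0.19, SE 0.103, edgeR adjusted p = 0.681). Its 95% interval, −0.04 to 0.42, leaves room for no difference and for a modestly higher level. It was 0.24 without GFP control replicate 3.

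Cdo1 (ENSMUSG00000033022) encodes cysteine dioxygenase, which opens the oxidative route from cysteine to taurine and sulfate. It measured 1292, 1403, 1711 and 1401 CPM in GFP control replicates 1 to 4. POLR2G replicate 1 had 1461 CPM, the unnumbered library 1297, replicate 3 1498 and replicate 4 1561. The POLR2G libraries lay inside the range of the controls, whose highest value was again replicate 3. The means were 1452 ± 180 and 1454 ± 113 CPM (log2 fold change 0.0025, SE 0.0998, edgeR adjusted p = 0.998). Its 95% interval ran from −0.22 to 0.23. The log2 fold change was 0.090 without GFP control replicate 3.

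Csad (ENSMUSG00000023044; chromosome 15, 102176999 to 102204724, minus strand) encodes cysteine sulfinic acid decarboxylase, which makes hypotaurine, the step before taurine. GFP control replicates 1 to 4 had 256, 399, 168 and 472 CPM. POLR2G replicate 1 had 143 CPM, the unnumbered library 157, replicate 3 179 and replicate 4 130. Of the 4 control libraries, 3 lay above every POLR2G library, and GFP control replicate 3 lay below POLR2G replicate 3. The means were 324 ± 137 and 152 ± 21.0 CPM, a 2.12-fold lower fitted level (log2 fold change −1.09, SE 0.280, edgeR adjusted p = 0.309). Its 95% interval, without adjustment for the number of genes, ran from −1.72 to −0.46, and 124 of the 10390 tested genes had a log2 fold change this low or lower.

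The Csad result depended on the test. DESeq2 gave the same log2 fold change of −1.09 with an adjusted p of 0.00499, in a test that called 130 of the 9862 genes with an adjusted p, or 1.32%. Without GFP control replicate 3 the log2 fold change was −1.3 (edgeR adjusted p = 0.105), and without replicate 4 it was −0.85 (0.499). The control libraries varied widely on this gene. Their SD on the log2 scale was 0.670, larger than that of 87.9% of tested genes, against 0.196 (48.4%) in the POLR2G libraries. No 31-base word of the coding Csad transcripts occurs in another annotated gene, so no near-identical copy was found. Whether the difference is one of the whole gene or of some of its 12 coding transcripts cannot be read from the table.

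Csad can also be set against Cdo1, the step before it, within each library, where no scaling enters. Per 100 Cdo1 counts there were 19.8, 28.5, 9.82 and 33.7 Csad counts in GFP control replicates 1 to 4. There were 9.80 in POLR2G replicate 1, 12.1 in the unnumbered library, 11.98 in replicate 3 and 8.36 in replicate 4. Replicates 1, 2 and 4 of the control were above every POLR2G library, and replicate 3 lay among them. Transcript length enters both counts, so the ratio compares libraries and not the genes.

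Slc6a6 (ENSMUSG00000030096; chromosome 6, 91684053 to 91759066, plus strand) encodes the sodium-coupled taurine transporter that brings taurine into cells. GFP control replicates 1 to 4 had 84.9, 94.5, 104.7 and 85.1 CPM. The POLR2G libraries had 68.9, 81.3 and 79.0 CPM in replicates 1, 3 and 4 and 64.3 CPM in the unnumbered library. Every POLR2G library was below every control library, although GFP control replicate 1 and POLR2G replicate 3 lay close together. The means were 92.3 ± 9.39 and 73.4 ± 8.12 CPM, 1.26-fold lower (log2 fold change −0.33, SE 0.101, edgeR adjusted p = 0.404). Without GFP control replicate 3, which was highest, it was −0.27.

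Ethe1 (ENSMUSG00000064254; chromosome 7, 24587543 to 24608925, plus strand) encodes the mitochondrial persulfide dioxygenase of hydrogen sulfide breakdown. GFP control replicates 1 to 4 had 16.3, 23.0, 12.6 and 18.7 CPM. POLR2G replicate 1 had 25.5 CPM, the unnumbered library 25.5, replicate 3 18.8 and replicate 4 26.3. In all, 3 POLR2G libraries were above every control library, and POLR2G replicate 3 was level with control replicate 4. The means were 17.6 ± 4.36 and 24.0 ± 3.51 CPM, 1.36-fold higher (log2 fold change 0.44, SE 0.181, edgeR adjusted p = 0.543). Without GFP control replicate 3, which was lowest, it was 0.31.

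Suox (ENSMUSG00000049858; chromosome 10, 128669894 to 128674073, minus strand) encodes sulfite oxidase, the last step to sulfate. GFP control replicates 1 to 4 had 112, 126, 80.1 and 112 CPM. POLR2G replicate 1 had 117 CPM, the unnumbered library 102, replicate 3 111 and replicate 4 115. GFP control replicate 3 was again the lowest of all libraries, and the POLR2G libraries lay within the control range. The means were 107 ± 19.4 and 111 ± 6.67 CPM (log2 fold change 0.052, SE 0.126, edgeR adjusted p = 0.952). Without that library the sign turned, to −0.066.

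The plot of deviations by library sets these patterns side by side. GFP control replicate 3 held the highest value of the 8 libraries for Mat1a, Cdo1 and Slc6a6 and the lowest for Ethe1 and Suox. It also held the lowest control value for Csad and Cbs. The female-biased sum of 61.4 CPM and the Mup share of 6.89% belong to that same library. Whether either goes with these values over the other libraries, and their part in the results, was not tested.

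**Figure D2:**
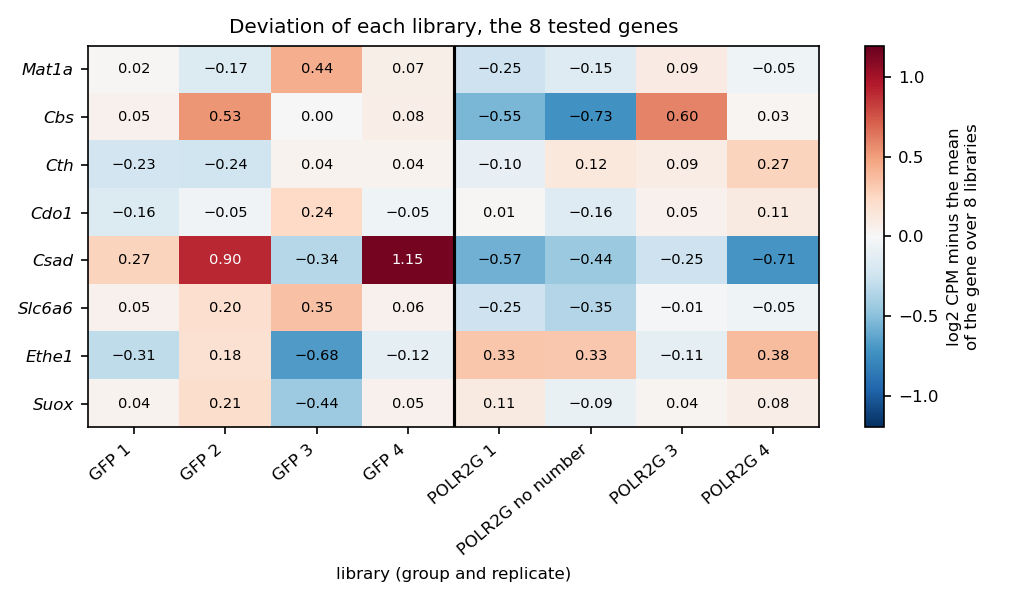
Log2 CPM of the 8 tested genes (rows) in each library (columns) minus the mean of the gene over all 8 libraries, red above and blue below it; the black line parts the groups. Csad runs from 1.15 in GFP control replicate 4 to −0.71 in POLR2G replicate 4, and GFP control replicate 3 departs from the other control libraries in several rows.

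Levels were compared between the genes as CPM per kilobase of the longest coding transcript. In the GFP control libraries Mat1a (1169 ± 213) and Cdo1 (910 ± 113) came first, with overlapping ranges. Cth (240 ± 26.8), Csad (142 ± 60.2) and Suox (43.0 ± 7.75) came next, each apart from its neighbours. Slc6a6 (14.9 ± 1.52), Ethe1 (11.9 ± 2.94) and Cbs (7.04 ± 1.299) overlapped from 1 to the next. Ahcy (0.156 ± 0.0652) was last, on counts far below what is usual for it. The order takes each value to cover all transcripts of its gene, which was not tested. In the POLR2G libraries Ethe1 (16.2 ± 2.36) stood above Slc6a6 (11.9 ± 1.31), with ranges that overlapped, and the order was otherwise the same. The order depends on the length used: per kilobase of the mean coding length, Csad (355) stood above Cth (240) and Slc6a6 (46.9) above Suox (43.0) in GFP control, and Cbs (22.7) above Ethe1 (11.9).

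Around these genes, 49 others of the pathway were listed, of which 2 are not analysed here, and 44 of the other 47 were tested. None changed in the whole-table test (edgeR adjusted p from 0.431 to 0.999) or in DESeq2, and 26 had a higher and 18 a lower mean in the POLR2G libraries, with a median log2 fold change of 0.042. At an unadjusted p under 0.05 stood 5 genes, all higher, and the groups did not overlap for 3. Both shares can be set beside the 8.30% and 5.51% of all tested genes given above.

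Of the 12 tested methionine cycle and methyl transfer genes, 8 had a higher mean. Mat2b, the regulatory subunit of the other methionine adenosyltransferase, measured 6.68 ± 0.494 CPM under AAV8-TBG-GFP and 9.17 ± 1.23 CPM under AAV8-TBG-POLR2G, the order kept for the genes that follow. Its log2 fold change was 0.46 (SE 0.144, edgeR adjusted p = 0.431), and the 4 POLR2G libraries lay above the 4 controls. Gnmt, the glycine methyltransferase that uses up S-adenosylmethionine, measured 1422 ± 130 and 1657 ± 124 CPM (log2 fold change 0.22, SE 0.0878, edgeR adjusted p = 0.530).

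Among the 8 polyamine and methionine salvage genes, 3 had a higher and 5 a lower mean. Apip, a dehydratase of the salvage route, measured 15.1 ± 2.07 and 18.4 ± 1.15 CPM (log2 fold change 0.29, SE 0.115, edgeR adjusted p = 0.530). Enoph1, a phosphatase of the same route, measured 4.21 ± 0.333 and 3.10 ± 0.703 CPM, with all POLR2G libraries below all controls (log2 fold change −0.44, SE 0.218, edgeR adjusted p = 0.647). Of the 8 genes of sulfide, sulfite and thiosulfate handling, 7 had a higher mean. Mpst, a sulfurtransferase that makes hydrogen sulfide, measured 82.0 ± 5.22 and 91.8 ± 4.46 CPM, with the groups apart (log2 fold change 0.16, SE 0.0698, edgeR adjusted p = 0.580). Papss1, a synthase of the sulfate donor, had 6 to 113 counts and a log2 fold change of 1.16 (SE 0.585, edgeR adjusted p = 0.654).

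For the other genes of taurine synthesis, transport and use, 3 of 5 tested had a higher mean. Slc36a1, an amino acid transporter gene, measured 32.4 ± 3.22 and 38.3 ± 3.01 CPM (log2 fold change 0.24, SE 0.0919, edgeR adjusted p = 0.513). Fmo1, which can oxidize hypotaurine to taurine, measured 7.86 ± 1.25 and 6.64 ± 0.909 CPM (log2 fold change −0.24, SE 0.173, edgeR adjusted p = 0.772). Of the 11 tested genes of cysteine use and glutathione, 5 had a higher and 6 a lower mean. Chac1, which breaks down glutathione, measured 4.16 ± 1.73 and 7.32 ± 2.94 CPM (log2 fold change 0.82, SE 0.389, edgeR adjusted p = 0.632). Oplah, an oxoprolinase, measured 26.1 ± 5.39 and 31.9 ± 6.31 CPM (log2 fold change 0.29, SE 0.179, edgeR adjusted p = 0.747). Gadl1 and the cystine transporter gene Slc7a11 were listed at 0 in every library.

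**Figure D3:**
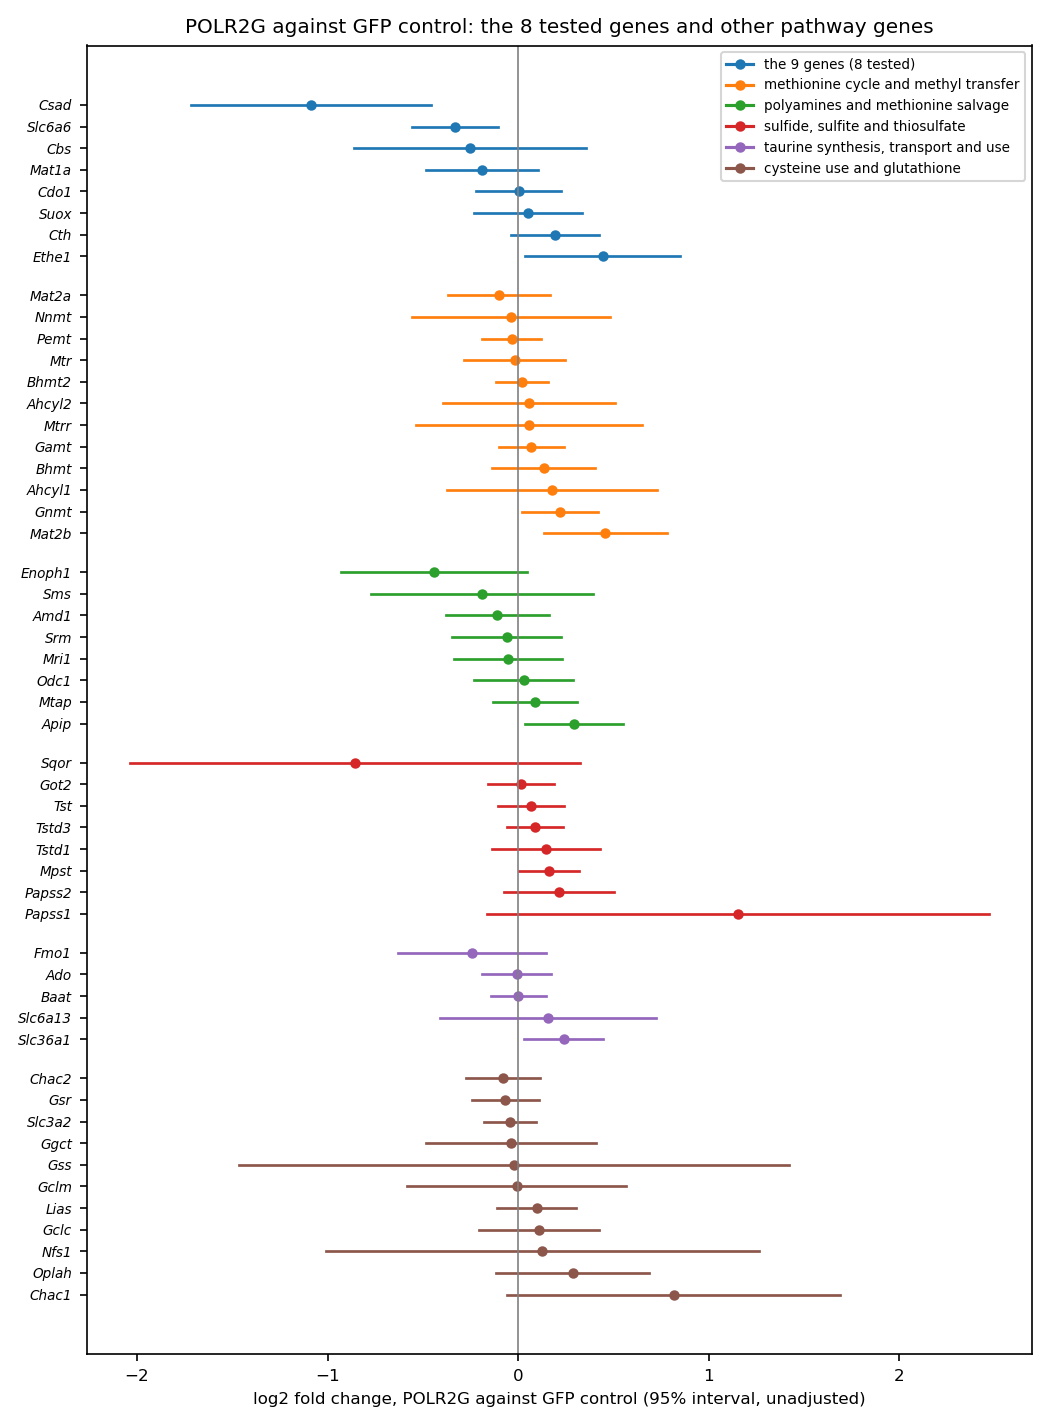
Log2 fold change of POLR2G against GFP control (horizontal axis) with its 95% interval, not adjusted for the number of genes, for the 8 tested genes (top) and 44 other pathway genes by role. Csad has the lowest point, at −1.09, and most intervals cross 0.

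To describe which genes went with Csad from library to library, the log2 CPM profile over the 8 libraries was centred for each gene and compared by the root mean square difference. Among 10101 named genes the nearest was Acaa1b, a peroxisomal thiolase gene, at 0.242. Tubb2a (0.287), a tubulin gene, Sema6c (0.293), a semaphorin gene, Ccdc130 (0.329) and Arrdc3 (0.332), an arrestin-family gene, followed. The median over the named genes was 0.697, and a flat profile would stand at 0.653. All 5 had their lowest control value in GFP control replicate 3, as Csad did, which their choice by likeness to Csad favours. The group means of Acaa1b were 917 ± 259 and 550 ± 87.3 CPM (log2 fold change −0.74, SE 0.208, edgeR adjusted p = 0.360). None of the 5 passed the threshold with all libraries. Without GFP control replicate 3, a check added after seeing the data, all 5 log2 fold changes were further below 0, at −0.92 for Acaa1b (edgeR adjusted p = 0.105), −0.96 for Sema6c (0.557) and −1.66 for Ccdc130 (0.308). Tubb2a, at −1.15 (0.015), and Arrdc3, at −1.12 (0.0388), passed the threshold then. The choice by likeness to Csad set this direction in advance, since each of the 5 had its lowest control value in the library left out. These values are therefore a description, and the passes support no difference between the groups.

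**Figure D4:**
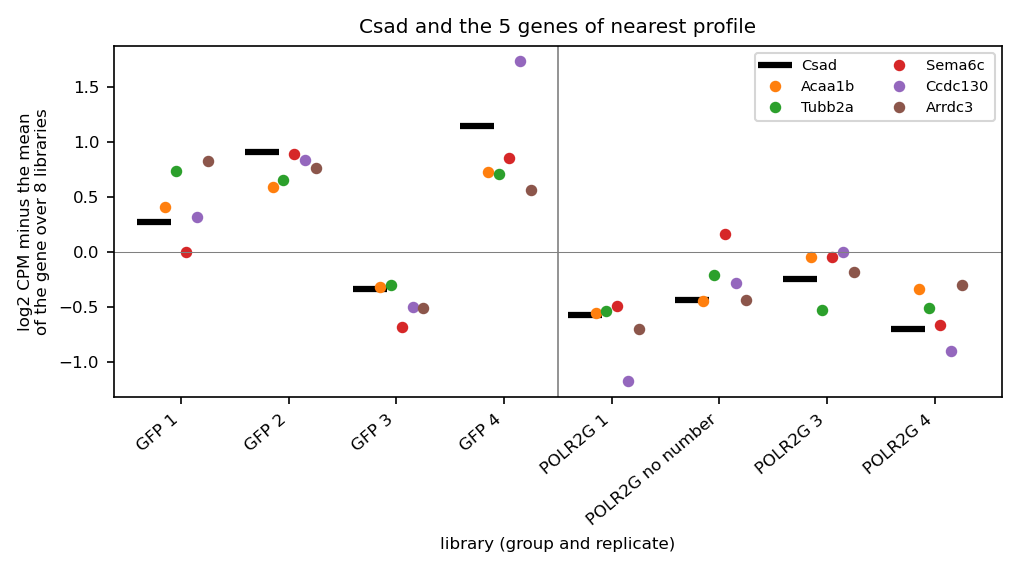
Log2 CPM minus the mean of the gene over the 8 libraries (vertical axis) for Csad (black bars) and the 5 genes of nearest profile (coloured points), by library (horizontal axis). Csad and Acaa1b are both low in GFP control replicate 3, at −0.34 and −0.32.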

How the data were processed

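Poly-A RNA of snap-frozen mouse liver was sequenced, with strand-specific libraries according to the labels. The authors deposited 1 table of estimated counts per gene, as whole numbers and not normalized. The submitters' processing notes name Salmon 1.2.1, which estimates transcript abundance, and GRCm38 and mm10, with no role. How transcripts were joined into genes, and with which annotation, is not stated in the labels. Symbols came from GENCODE M21 names (20817 of 20894 genes matched).

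Columns were matched to samples by library name. The replicate numbers name libraries, and no label names the animal behind a library. The p-values therefore cover only the spread among libraries, which may be technical. Chi-square per degree of freedom between libraries of a group was at least 13.7, so all were kept as separate.

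Groups were compared with the edgeR 4.0.16 quasi-likelihood test, two-sided, in R 4.3.3, with no term but the group. Scaling was TMM, and filterByExpr was set to at least 10 counts and a total of 15. P-values were adjusted by Benjamini-Hochberg across all 10390 genes tested, with a threshold of 0.05. Log2 CPM used a prior count of 2. SE is the size of the fold change on the log2 scale over the root of F. The scripts were tested on simulated data.

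The 9 genes, the pathway list, the marker lists and the tests were chosen with earlier results of these data known. Named genes are the 9, in each pathway role the genes past the threshold or otherwise the 2 with the smallest p, and the 5 genes of nearest profile to Csad. Single genes outside this rule (Gadl1, Slc7a11 and Gm4737) are named because of their low values, after these were seen. Car3 is named because a marker sum rests on it. Alternatives were other scalings, filters and library sizes, DESeq2 1.42.0, the replicate block and each library left out. Fitting the 6 libraries of the block without it, and the genes of nearest profile without GFP control replicate 3, was added after seeing the data.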

Additional observations from a re-analysis of the deposited data

Results flagged for a closer look

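Among the 9 genes, 18 groups of 4 libraries were examined for a library far from the other 3, and chance alone marks about 1 in 20 such groups. Cbs in GFP control replicate 2, at 55.9 CPM, stood far above the other 3 control libraries (38.6 to 40.8 CPM). Without that library the log2 fold change of Cbs was −0.11, and with it −0.25. Ethe1 in POLR2G replicate 3, at 18.8 CPM, stood far below the other 3 POLR2G libraries (25.5 to 26.3 CPM). Without POLR2G replicate 3 the log2 fold change of Ethe1 was 0.55, and with it 0.44. Cbs in POLR2G replicate 3 was at the same time the highest of that group, at 58.5 CPM.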

How the results depend on the processing

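The main test called 2 genes higher and 2 lower over the whole table. Upper quartile scaling called 2 higher and 1 lower, library totals only 1 and 0, DESeq2 69 and 61, no low-count filter 2 and 4, Polr2g left out of library sizes 1 and 1, and the 20 most abundant genes left out 2 and 1. With 1 library left out, the counts were 1 to 3 higher and 0 to 3 lower. They moved by over 1.5 times without GFP control replicates 2 (1 and 1) or 4 (2 and 1), POLR2G replicates 1 (1 and 0) or 4 (1 and 0), or the unnumbered library (1 and 1). None of the 9 genes was called under any of the 18 alternatives except Csad, the 1 gene of the 9 called by DESeq2 (adjusted p = 0.00499), which called 1.32% of 9862 genes. Over the edgeR settings the adjusted p of Csad ran from 0.105, without GFP control replicate 3, to 0.727, and none of the other pathway genes was called under any alternative, DESeq2 included. Csad, Slc6a6, Mat1a, Cth and Ethe1 kept their direction under all 18. The log2 fold change of Cdo1, 0.0025 in the main test, was −0.083 with library totals only and ran from −0.049 to 0.090 with 1 library left out. That of Suox, 0.052 in the main test, was −0.020 with library totals only and ran from −0.066 to 0.14 with 1 library left out. Cbs was at 0.052 in the 6 libraries of the block fitted without it, against −0.25 in the main test; the cause was not tested.

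The replicate block used replicates 1, 3 and 4 of each group, since the unnumbered library has no partner, and called 1 gene higher and 1 lower. The same 6 libraries without the block gave 1 and 0. Deviations of same-numbered libraries correlated across genes at 0.064, −0.025 and 0.036, so the numbers were not taken to pair the samples. With the block Csad stood at −0.87 and none of the 9 genes was called. Few counts limit what can be said of Ahcy and Papss1.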
